A study of Homo sapiens with 6 samples.

Results

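The genes described here are 10 members of the Notch pathway: the receptors NOTCH1, NOTCH2 and NOTCH3, the ligands JAG1, JAG2, DLL1 and DLL3, the DNA-binding protein RBPJ, and the target genes HES1 and HEY1. They were taken by symbol from a table of 19892 genes, and all 10 had a row. The samples were CNBP knockout HEK293 cells, made with CRISPR-Cas9, and wild-type cells of the same line, with 3 libraries in each group. HEK293 is a human cell line of embryonic kidney origin. CNBP is a zinc-knuckle protein that binds nucleic acids, and the study asked how it binds G-rich stretches of coding sequence and affects translation. The labels give neither the cut site nor the number of knockout clones.

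Notch receptors are single-pass membrane proteins that are activated by ligands on neighbouring cells. Ligand binding exposes the receptor to ADAM proteases and then to gamma-secretase, which frees the intracellular domain. This domain enters the nucleus, joins RBPJ and a Mastermind-like coactivator, and turns on genes such as HES1 and HEY1, whose products are transcriptional repressors. Without it, RBPJ binds the same DNA together with corepressors. HES1 protein also represses its own gene, as was shown in the mouse.

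The table gives 1 value per gene and group in FPKM, a measure of fragments scaled by transcript length and library size, so levels can be set side by side between genes. No value per library accompanies it. Differences therefore have no replicate check, no p-value and no standard deviation, and the depth behind them is unknown. They are written as log2 of knockout over wild type, and they describe the 2 columns. As bulk values, they cannot tell apart fewer cells that express a gene from less RNA per cell. CNBP mRNA was at 214 FPKM in knockout and 202 FPKM in wild type, so it did not check the labels of the columns. Of the HEK293 and kidney markers, VIM was at 520 FPKM in knockout and 510 FPKM in wild type. KRT8 was at 98.4 FPKM in knockout and 123 FPKM in wild type. KRT18 was at 49.1 FPKM in knockout and 54.0 FPKM in wild type. PAX2 was at 2.16 FPKM in knockout and 2.71 FPKM in wild type. NEFM was at 1.02 FPKM in knockout and 0.912 FPKM in wild type. NEFL and LHX1 were listed at 0 with no transcript length. The 8 blood and endothelial markers were under 0.4 FPKM in both columns, with CD3E and PECAM1 at 0. All 5 fibroblast matrix markers were above 3 FPKM in both columns, with COL1A1 at 38.2 FPKM in knockout and 41.3 FPKM in wild type. Their part in the results below was not tested.

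HES1 is the target whose promoter is best known as a place of RBPJ binding, and NOTCH1 and NOTCH3 are the members whose ratios lay farthest from 0. The 250 bases before the RefSeq start of each are shown so that this target can be read beside both receptors. On GRCh38.p14 they lie at chr3:194135898-194136147 on the plus strand for HES1, at chr9:136546049-136546298 on the minus strand for NOTCH1, and at chr19:15200996-15201245 on the minus strand for NOTCH3. Capitals mark TGGGAA and the variant TGTGAA, the cores of RBPJ motifs, on either strand.
HES1: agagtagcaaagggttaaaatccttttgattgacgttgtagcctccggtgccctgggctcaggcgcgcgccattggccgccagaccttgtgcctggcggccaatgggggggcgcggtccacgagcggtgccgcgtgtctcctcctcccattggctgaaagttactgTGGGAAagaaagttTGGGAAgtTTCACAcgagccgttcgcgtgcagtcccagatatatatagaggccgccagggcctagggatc
NOTCH1: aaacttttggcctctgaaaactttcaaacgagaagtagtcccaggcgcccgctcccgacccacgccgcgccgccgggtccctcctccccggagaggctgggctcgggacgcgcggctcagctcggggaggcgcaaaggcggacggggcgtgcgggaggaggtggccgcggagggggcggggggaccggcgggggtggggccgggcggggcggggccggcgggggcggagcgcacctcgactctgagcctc
NOTCH3: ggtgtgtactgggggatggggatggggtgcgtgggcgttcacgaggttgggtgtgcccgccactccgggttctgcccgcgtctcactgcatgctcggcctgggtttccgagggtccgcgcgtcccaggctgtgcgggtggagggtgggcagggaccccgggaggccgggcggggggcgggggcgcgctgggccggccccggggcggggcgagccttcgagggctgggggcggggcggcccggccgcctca

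The HES1 sequence held TGGGAA 2 times, starting 84 and 70 bases before the start, and TGTGAA 1 time on the opposite strand, 62 bases before it. NOTCH1 and NOTCH3 held neither. Of 35116 RefSeq promoter windows of this length, 20.8% held TGGGAA, 11.0% held TGTGAA and 0.373% held at least 2 of the first with 1 of the second, a combination chosen after the HES1 sequence was seen. In all, 7 members had entries, with 11 windows between them. The windows of NOTCH2, JAG1 and JAG2 held neither motif, and 1 of the 5 RBPJ windows held TGGGAA 2 times. CACNAG, the N box that HES factors bind, occurred 3 times in the HES1 window, counting both strands, while 6.32% of all windows held it at least 2 times and 32.0% at least 1 time. It occurred 1 time in the NOTCH3 window and 1 time in 1 of the RBPJ windows. These matches are letters in a window, and no binding was measured.

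The order of the 10 genes by level was almost the same in the 2 columns. In knockout, RBPJ was the most abundant at 44.3 FPKM, followed by HES1 at 37.4, NOTCH2 at 31.6, JAG2 at 29.3, HEY1 at 11.3, JAG1 at 7.80, NOTCH1 at 5.94, DLL3 at 4.84, NOTCH3 at 3.18 and DLL1 at 1.66 FPKM. In wild type, RBPJ was also the highest at 48.6 FPKM and DLL1 the lowest at 1.68 FPKM. DLL3 and NOTCH3 were the only pair that changed places. NOTCH1, NOTCH3 and DLL3 lay between 4.05 and 4.28 FPKM in wild type. Without values per library, it cannot be said which neighbours in this order differ beyond their spread.

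**Figure D1:**
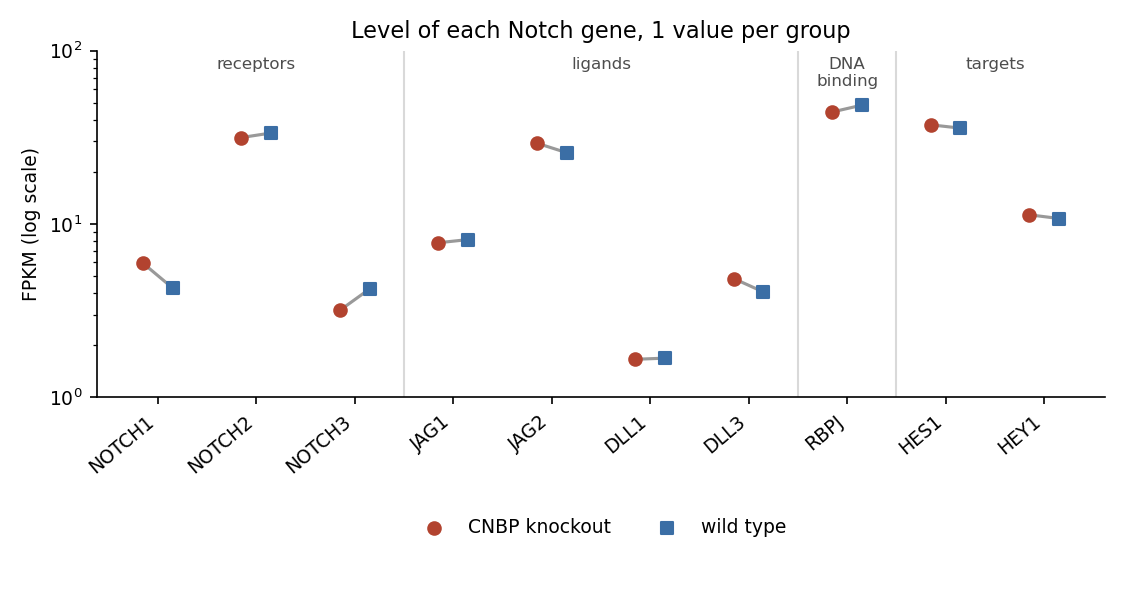
FPKM on a log scale for each of the 10 Notch genes, with the CNBP knockout value as a circle on the left and the wild-type value as a square on the right, 1 value per group and no error bars. The steepest lines are those of NOTCH1 (5.94 in knockout, 4.28 in wild type) and NOTCH3 (3.18 in knockout, 4.22 in wild type), which slope in opposite directions.

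Of the members, the receptors NOTCH1 and NOTCH3 had the ratios farthest from 0, while NOTCH2 was closer to 0 than DLL3, JAG2 and RBPJ. NOTCH1, the receptor best known from T-cell development and leukaemia, was at 5.94 FPKM in knockout and 4.28 FPKM in wild type, a log2 ratio of 0.47 (1.39-fold higher). NOTCH3, known from vascular smooth muscle, was at 3.18 FPKM in knockout and 4.22 FPKM in wild type, a log2 ratio of -0.41 (1.33-fold lower). NOTCH2, a receptor needed for kidney development, was at 31.6 FPKM in knockout and 33.5 FPKM in wild type, a log2 ratio of -0.09. NOTCH1 and NOTCH3 were level in wild type, with a ratio of NOTCH1 to NOTCH3 of 1.01. In knockout this ratio was 1.87, a difference of 1.84-fold between the columns. The pair was chosen after its values were seen. It joins the highest and lowest log2 ratios of the 10 members, so no other pair of members could differ more. No background was computed for such a ratio of 2 genes.

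NOTCH2 supplied most of the receptor mRNA in both columns, with 77.6% of the summed FPKM of the 3 receptors in knockout and 79.8% in wild type. NOTCH1 made up 14.6% in knockout and 10.2% in wild type. NOTCH3 made up 7.81% in knockout and 10.0% in wild type. The sum itself was 40.7 FPKM in knockout and 42.0 FPKM in wild type. NOTCH2 shares near-identical sequence with its partial copy NOTCH2NL, listed at 33.5 FPKM in knockout and 36.2 FPKM in wild type, so reads of this pair could have been split between them. The row of NOTCH4 was listed at 0 in both columns under an Ensembl ID that is not on the primary assembly of GENCODE release 29.

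The log2 ratios of the 4 ligands ran from -0.06 to 0.26. JAG2, a Jagged ligand, was at 29.3 FPKM in knockout and 25.8 FPKM in wild type, a log2 ratio of 0.18. JAG1, the ligand whose loss causes Alagille syndrome, was at 7.80 FPKM in knockout and 8.13 FPKM in wild type, a log2 ratio of -0.06. Of the Delta-like ligands, DLL3, which acts within the cell as an inhibitor of Notch signalling, was at 4.84 FPKM in knockout and 4.05 FPKM in wild type, a log2 ratio of 0.26. DLL1, an activating ligand, was at 1.66 FPKM in knockout and 1.68 FPKM in wild type, a log2 ratio of -0.02. DLL1 overlaps FAM120B on the opposite strand, which was at 15.1 FPKM in knockout and 16.9 FPKM in wild type. Whether the counting used strand is not stated in the labels or the table.

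JAG2 was the leading ligand in both columns, at 67.2% of the summed FPKM of the 4 ligands in knockout and 65.1% in wild type. JAG1 followed with 17.9% in knockout and 20.5% in wild type. DLL3 held 11.1% in knockout and 10.2% in wild type, and DLL1 3.80% in knockout and 4.24% in wild type. The summed ligand level was 43.6 FPKM in knockout and 39.7 FPKM in wild type.

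**Figure D2:**
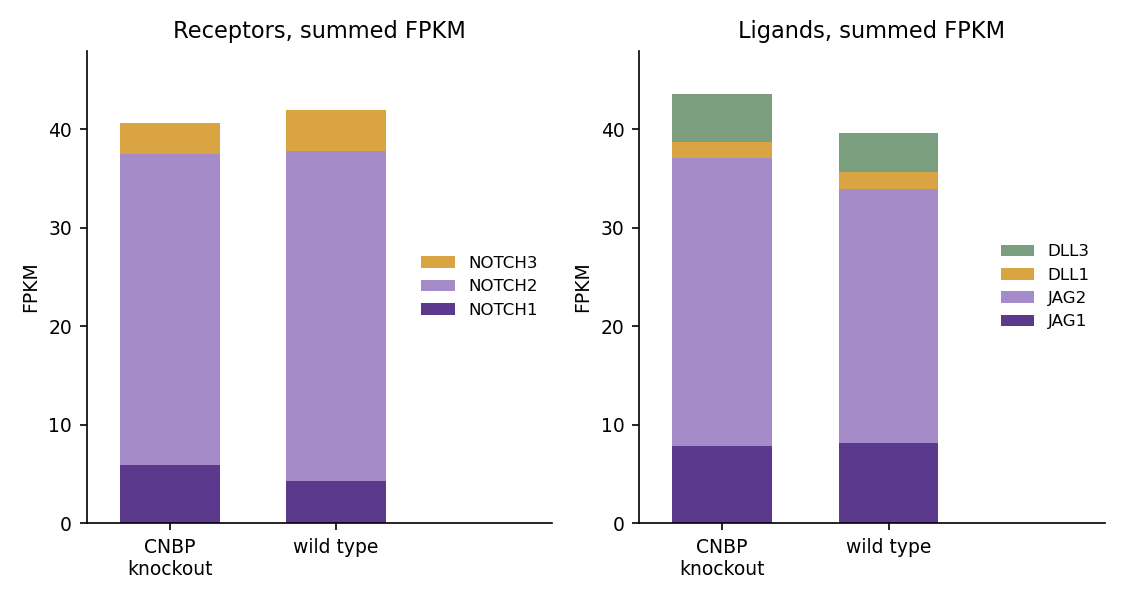
Stacked bars of the summed FPKM of the 3 receptors (left panel) and the 4 ligands (right panel), with CNBP knockout left of wild type in each panel, from 1 value per gene and group. NOTCH2 and JAG2 fill most of each bar, and the NOTCH1 segment is thicker in knockout (5.94 FPKM) than in wild type (4.28 FPKM).

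The nuclear members were close between the columns. RBPJ was at 44.3 FPKM in knockout and 48.6 FPKM in wild type, a log2 ratio of -0.13. Processed pseudogenes of RBPJ exist, and the labels do not say how their reads were assigned. HES1 was at 37.4 FPKM in knockout and 35.8 FPKM in wild type, a log2 ratio of 0.06. HEY1 was at 11.3 FPKM in knockout and 10.8 FPKM in wild type, a log2 ratio of 0.07. The ratio of HES1 to HEY1 was 3.31 in knockout and 3.32 in wild type. The HES1 and HEY1 mRNAs lay within 1.2-fold between the columns, and so did the main receptor mRNA, NOTCH2. Counting all members, 8 lay within that fold, and only NOTCH1 and NOTCH3 did not. These receptors were at lower levels than HES1 and HEY1, and ratios spread more widely at low levels. The values therefore do not set the targets apart from the receptors.

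The members were then read against all 13219 compared genes, those that reached 1 FPKM in at least one group and were listed above 0 in each. Of these, 4.27% lay at 1.5-fold or more, 1.48% higher in knockout and 2.78% lower. All 10 members were among them, and 0 of 10 reached that fold. At 1.2-fold, 2 of 10 members (NOTCH1 and NOTCH3) were past the threshold, against 21.8% of the compared genes. Of the members, 5 had a ratio above 0, against 48.7% of the compared genes, and their median log2 ratio was 0.02, against -0.01 over all compared genes.

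Ratios spread more widely at low levels, so each member was also set beside genes of like level, those whose mean FPKM lay within 1.5-fold of its own. Among 1801 genes at the level of NOTCH1, 9.72% had a ratio as far from 0 or farther, and the central 95% of their log2 ratios ran from -0.65 to 0.52. Among 1574 genes at the level of NOTCH3, 18.8% were as far or farther. For JAG2 the share was 27.9%, for DLL3 34.4% and for RBPJ 40.6%. NOTCH2, JAG1, HES1, HEY1 and DLL1 had shares from 57.5% to 94.4%. All 10 members lay within the central 95% of genes of their level.

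**Figure D3:**
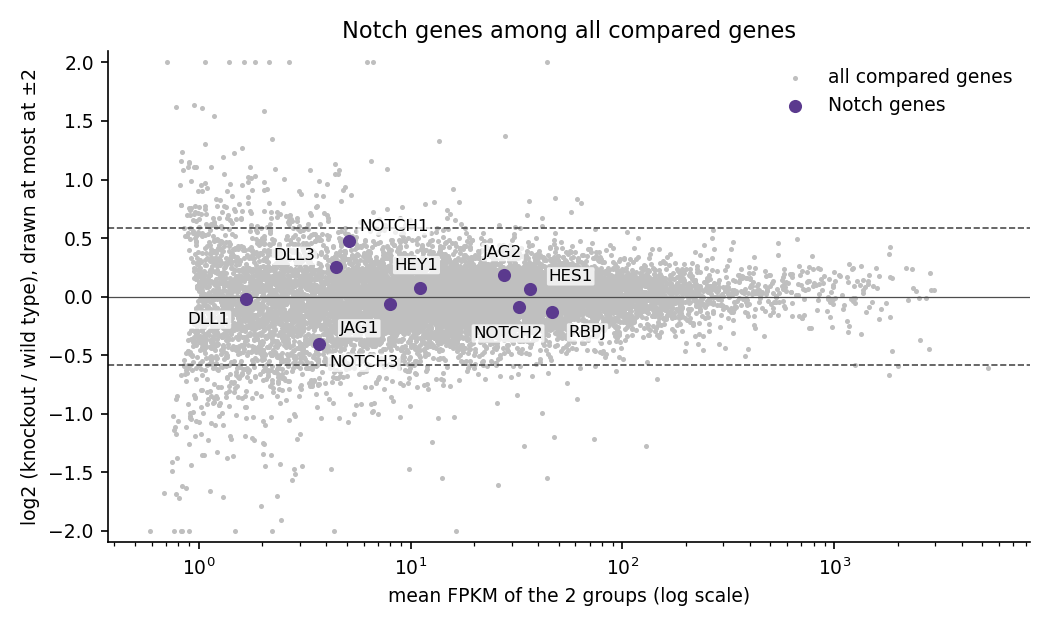
Log2 ratio of knockout over wild type against the mean FPKM of the 2 groups on a log scale, for all 13219 compared genes in grey (ratios beyond 2 either way drawn at 2) and the 10 Notch genes in purple, with dashed lines at 1.5-fold. All 10 Notch genes lie between the dashed lines, with NOTCH1 (0.47) and NOTCH3 (-0.41) nearest to them.

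NOTCH1 lay in a stretch of chromosome 9 where most genes had ratios above 0. Of its 20 nearest compared genes in gene order, 18 were above 0, against 48.7% of all compared genes. Their median log2 ratio was 0.11. With that median taken off, NOTCH1 was at 0.37. NOTCH1 was taken as a centre for its high ratio. How often windows of 20 genes elsewhere reach such a count was not computed. Its direct neighbour EGFL7, a secreted protein of blood vessels, was at 16.1 FPKM in knockout and 13.0 FPKM in wild type, a log2 ratio of 0.31. MAMDC4, further along, had 0.49 and was the only one of the 20 as high as NOTCH1. Both neighbours were named after their values were seen. Around NOTCH3 on chromosome 19, 9 of 20 genes were above 0, against the same 48.7%, with a median of -0.02. Of these 20, 0 were as low as NOTCH3. Its ratio with that median taken off was -0.39.

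For 4 members, taking off the median of the surrounding genes changed the log2 ratio by more than 0.1. HES1 lay on chromosome 3 among genes with a median of 0.19, and its ratio less that median was -0.13. DLL3 lay on chromosome 19 among genes with a median of 0.15, which left 0.10. RBPJ, on chromosome 4, lay among genes with a median of -0.12, which left -0.01. NOTCH1 was the other one. Whether the genes of such a stretch move together, and why, was not tested.

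**Figure D4:**
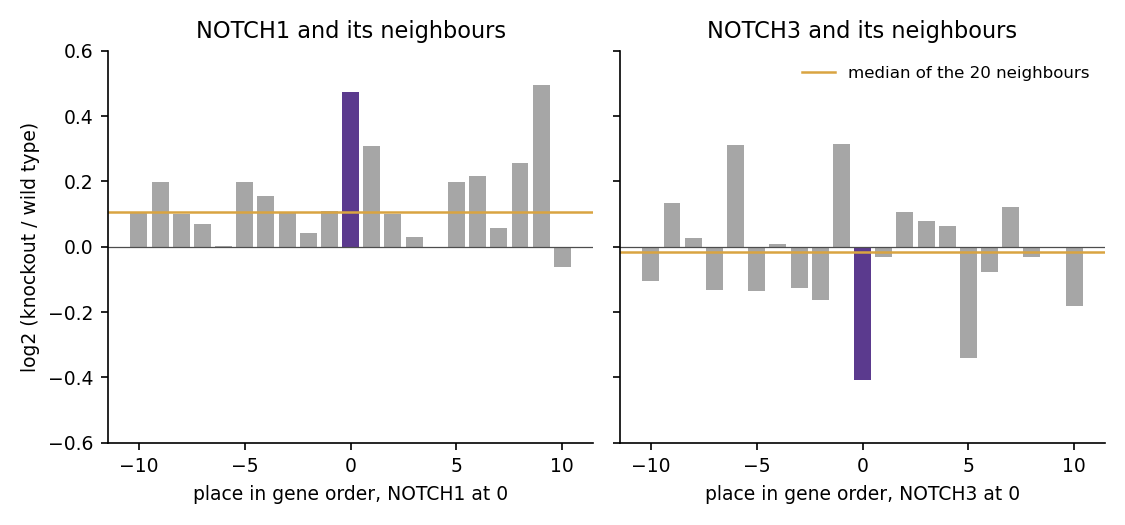
Log2 ratio of knockout over wild type for NOTCH1 (left panel) and NOTCH3 (right panel), in purple at place 0, and for the 10 nearest compared genes on each side in grey, in gene order along the chromosome. The line marks the median of the 20 neighbours, 0.11 around NOTCH1, where 18 bars point up, and -0.02 around NOTCH3, where 9 do. Of all compared genes, 48.7% were above 0.

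The other genes of the pathway were taken from a list of 69 genes in 11 roles, members included, of which 58 were compared. Of these 58, 37 were above 0 and 21 below, with a median of 0.06, against 48.7% above 0 and a median of -0.01 over all compared genes. At 1.5-fold or more, 0 were higher and 1 lower, against 1.48% higher and 2.78% lower over all compared genes. The gene past that fold was DTX4, a Deltex ubiquitin ligase, at 0.860 FPKM in knockout and 1.63 FPKM in wild type, a log2 ratio of -0.92. Among 1118 genes of like level, 6.71% were as far from 0 or farther, and the central 95% ran from -1.05 to 0.95. With a pseudocount of 1 FPKM or a minimum of 5 FPKM, DTX4 no longer counted and 0 pathway genes were past 1.5-fold. Without the 10 members, 32 of 48 genes were above 0. The pathway genes as a set were not matched to genes of like level.

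The compared enzymes that modify or cleave ligands and receptors had log2 ratios from -0.22 to 0.18. The ligand ubiquitin ligases MIB1 and MIB2, which let ligands pull on the receptor, had log2 ratios of -0.05 and 0.06. POFUT1, which adds O-fucose to Notch, was at 26.2 FPKM in knockout and 30.6 FPKM in wild type (-0.22), and RFNG, a Fringe that extends this sugar, had 0.10. The other Fringes, LFNG and MFNG, were under 1 FPKM in both columns. All 9 proteases were compared, with 3 above 0, against 48.7% of all compared genes, and a median of -0.03. The gamma-secretase subunits PSENEN and APH1A, the most abundant of them by the mean of the 2 columns, had -0.03 and 0.02. NCSTN, a further subunit, was at 64.1 FPKM in knockout and 56.6 FPKM in wild type (0.18), named after its value was seen. DLL4 was at 0.761 FPKM in knockout and 0.561 FPKM in wild type, below the minimum. Of the non-canonical ligands, DLK2 had a log2 ratio of 0.28 at 2.88 FPKM in knockout and 2.37 FPKM in wild type. DNER was at 0.325 FPKM in knockout and 0.388 FPKM in wild type, and DLK1 was listed at 0 in both columns.

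Of the genes that act on the receptor after synthesis or cleavage, 6 of 8 were above 0, against 48.7% of all compared genes. The ubiquitin ligase ITCH had a log2 ratio of 0.15. NRARP, a target and feedback inhibitor of Notch, was at 27.5 FPKM in knockout and 23.6 FPKM in wild type, a log2 ratio of 0.22. In the nuclear complex, 4 of 7 genes were above 0, against the same 48.7%, with SNW1 at -0.14 and the acetyltransferase EP300 at 0.18. With 8 and 7 genes, neither count can show a lean of its role. Of the 13 corepressors and their partners, 12 were above 0, against 48.7% of all compared genes, with a median of 0.10 and none past 1.5-fold. This role was singled out after its count was seen. The same number, 12 of 13, was above 0 with the median of the 20 nearest genes taken off. Centring on the median of all compared genes also left 12, but it could not lower the count, since that median was below 0. These genes were not set beside genes of like level. HDAC2, a histone deacetylase, was at 159 FPKM in knockout and 148 FPKM in wild type (0.10). SPEN, which binds RBPJ directly, was at 119 FPKM in knockout and 104 FPKM in wild type (0.20). TLE2, a Groucho-type corepressor, was the exception at -0.38, with 6.21 FPKM in knockout and 8.06 FPKM in wild type, named after its value was seen.

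Of the 7 listed targets, 6 were compared, with 4 above 0, against 48.7% of all compared genes, and a median of 0.07. HES4 was the most abundant gene of the HES and HEY families, at 137 FPKM in knockout and 125 FPKM in wild type, a log2 ratio of 0.13, and HEY2 had -0.02. HES5, a target of neural progenitors, was under 0.1 FPKM in both columns. HES6, which counteracts HES1, had 0.05 and HES2 0.06.

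**Figure D5:**
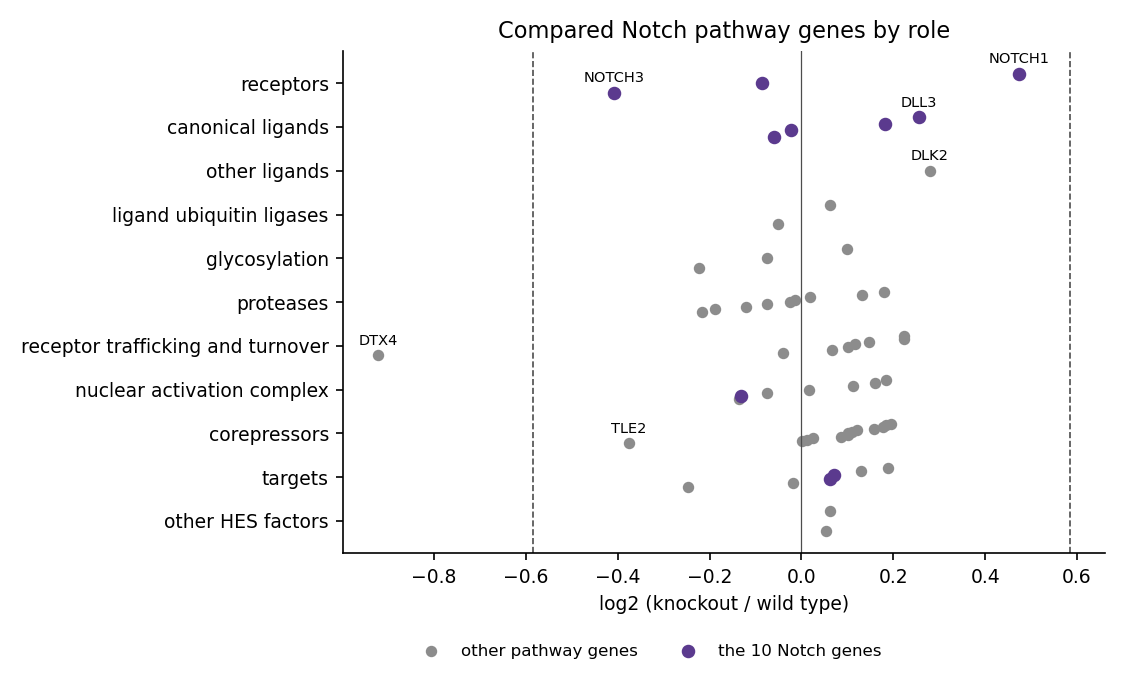
Log2 ratio of knockout over wild type for the 58 compared pathway genes, 1 row per role, with the 10 Notch genes in purple, the others in grey and dashed lines at 1.5-fold. DTX4 (-0.92) is the 1 gene past a dashed line, and 12 of the 13 corepressors lie right of 0.

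The longest coding sequence of each member in GENCODE release 29 was searched for TGGAG, a G-rich core of the sequences that CNBP is known to bind. Only the coding strand was read. The members held 79 matches, with a median of 2.16 per kb, against 2.84 per kb over 13180 compared genes with a coding sequence. HES1 stood highest among them, with 6 matches in 840 coding bases or 7.14 per kb, a density above that of 96.3% of these genes. Its coding sequence was the shortest of the members, so each match weighs more in its density. The genes it was set beside were not matched for length or G content. NOTCH2 had 20 matches (2.70 per kb), NOTCH3 15 (2.15 per kb) and NOTCH1 11 (1.44 per kb). RBPJ had the lowest density, 1.33 per kb from 2 matches. These densities describe sequence, and neither binding nor translation was measured in the table.

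The 60-base coding stretches with the most matches, starting at a codon, are shown for the 3 receptors and HES1, with TGGAG in capitals. They are bases 5977 to 6036 of the NOTCH1 coding sequence, 940 to 999 of NOTCH2, 4846 to 4905 of NOTCH3 and 595 to 654 of HES1.
NOTCH1: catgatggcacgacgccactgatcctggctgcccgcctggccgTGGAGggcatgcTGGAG
NOTCH2: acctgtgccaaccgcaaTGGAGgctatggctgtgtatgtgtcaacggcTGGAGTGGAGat
NOTCH3: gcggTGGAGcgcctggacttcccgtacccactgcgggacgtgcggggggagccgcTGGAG
HES1: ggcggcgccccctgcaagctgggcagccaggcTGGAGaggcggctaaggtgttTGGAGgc

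NOTCH2 held 3 matches in its stretch, 2 of them side by side, and the other genes held 2 each. The matches also differed in reading frame. In NOTCH2, 15 of 20 began at the third base of a codon, where the motif contains the glycine codon GGA. In JAG2, 8 of 9 began at the second base, where it contains the glutamate codon GAG. Over the members, 41.8% of matches began at the third base, against 30.5% over all compared genes. Without NOTCH2, left out after the counts were seen, the pooled share of the members was 30.5% (18 of 59), so the pooled difference came from NOTCH2. Single members lay on both sides of that share, such as JAG2 with 0 of 9 and DLL1 with 3 of 4.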

How the data were processed

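Directional RNA-seq libraries were made from total RNA of CNBP knockout and wild-type HEK293 cells, 3 per group, per the labels' protocols. TopHat, Cufflinks, Cuffdiff and hg19 appear in the submitters' processing notes; they give no versions, annotation or way of combining libraries. The authors deposited 1 FPKM value per gene and group; the unit was inferred from these tools and from column sums of 612941 (knockout) and 612366 (wild type). The deposited ratio column was not used.

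Log2 ratios of knockout over wild type were computed with no pseudocount for genes with at least 1 FPKM in one group and above 0 in both. A linear model planned for values per library could not be run on 1 value per group, so a fold served as a descriptive threshold. Its value of 1.5 followed an earlier account of these data. The members and lists were chosen with earlier results of these data known. All members were named, with the 2 most abundant other genes of each role and any past 1.5-fold. Gene order, overlaps and coding sequences came from GENCODE release 29 by Ensembl ID, on another build than hg19. Promoters came from RefSeq (GRCh38.p14). The code was tested on simulated data. The values were recomputed with a minimum of 5 FPKM, with no minimum, with 1 or 0.1 FPKM added, at a 1.2-fold threshold, with centring on the median, and with the median of the 20 nearest genes taken off. Python 3.11.15, numpy 2.4.6, pandas 2.3.3 and matplotlib 3.10.9 were used.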

Additional observations from a re-analysis of the deposited data

How the results depend on the processing

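No paired analysis was possible because the table holds 1 value per group and none per library, so leaving out a replicate was not possible either. The count of members past 1.5-fold was 0 with an FPKM minimum of 5 (7 members kept), with none, with a pseudocount of 1 and after centring. None of these settings could add a member past that fold. They drop genes, add no member, shrink the ratios or shift them only slightly. At a threshold of 1.2-fold the count was 2. The count of pathway genes past 1.5-fold was 1, and became 0 with a minimum of 5 and 0 with a pseudocount of 1. With no minimum it was 3 (DTX4, DTX1 and HES5, the last 2 under 0.5 FPKM). At 1.2-fold it was 5 of 58, against 21.8% of all compared genes. Ratios spread more widely at low levels, and these shares were not matched for level. The median of the members ran from 0.02 to 0.03 over its alternatives and that of the pathway genes from 0.04 to 0.07. Of 40 member values under alternatives, 36 moved by under 0.1 in log2. The other 4, for NOTCH1, DLL3, HES1 and RBPJ, came from taking off the median of the nearest genes, which changed the sign of HES1 (-0.13) and of DLL1 (0.08). With a pseudocount of 1, NOTCH1 was at 0.40 and NOTCH3 at -0.32. The depth is unknown, so the precision of low values cannot be given.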
